A study of Macaca mulatta with 31 samples.

Results

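Fragmented blastocysts, meaning embryos labelled as having shed small pieces of cytoplasm during their cell divisions, were compared between maternal diets. They were chosen by their morphology label alone and numbered 15 of the 31 blastocysts in the deposited table, from which the authors had already removed a sample of low gene counts from each diet. Of the 15, 9 came after a Western-style diet (WSD) and 6 came after a standard chow diet (SCD). RNA of each rhesus macaque blastocyst was copied into cDNA with a SMART-Seq kit for very small inputs, amplified, and sequenced as its own library. A first controlled ovarian stimulation (COS #1) on a chow of 15% fat gave the SCD blastocysts. A further stimulation (COS #2), once the females had eaten a diet of 36% fat for 6 to 8 months, gave the WSD blastocysts. The females were 5 to 6 years old when they were selected, and the zygotes were made by in vitro fertilization and cultured for 6 to 8 days to the blastocyst stage, after which the zona pellucida was removed. All fragmented blastocysts carried the label non-multipolar, meaning that their divisions had not split a cell into more than a pair of daughters. Diet and COS cycle divided the blastocysts in the same way and cannot be told apart. Blastocysts are named here by diet and label number, so that SCD 3 is the SCD sample numbered 3.

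The blastocyst holds an inner cell mass, which gives rise to the epiblast and the primitive endoderm, inside a shell of trophectoderm that later attaches to the uterus. Each lineage is known by its transcription factors, such as POU5F1 and NANOG in the epiblast, GATA6 and SOX17 in the primitive endoderm, and CDX2 and GATA2 in the trophectoderm. Embryos that fragment lose cytoplasm, RNA and sometimes chromosomes, and those that still reach the blastocyst stage do so with the material that remains.

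Fragmented SCD blastocysts had 13834097 to 27992541 counts in all (median 18906800), and fragmented WSD blastocysts had 16800374 to 29865336 (median 21971537). Of the 35395 genes in the table, 31668 had at least 1 count in a fragmented blastocyst. SCD 3 and SCD 7 stood apart from the other SCD blastocysts. SCD 3 had the lowest total count and the most detected genes, 25762 with at least 1 count, against 21469 in the next. Genes too low to be tested took 1.03% of its counts, against 0.220% in the next SCD blastocyst. It also held, with SCD 6, far more RNA of genes typical of oocytes than the other blastocysts, with a sum over 17 such genes, chosen after the data were seen, of 1037 CPM (counts per 1e6 counts, after TMM scaling) in SCD 3 and 1236 CPM in SCD 6, against at most 577 CPM elsewhere. Some of the 17 genes also led the axis that set SCD 3 apart, described below, so its high sum is not independent of that axis. SCD 7 differed from the other SCD blastocysts in its low trophectoderm RNA, described with the lineage markers. The test across genes and the gene lists are therefore also given without SCD 3 and without SCD 7. SCD 7 was singled out because it resembled WSD blastocysts, so values without it favour a difference and are given as description only.

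The fragmented WSD blastocysts contained transcripts of fewer genes on average than the fragmented SCD blastocysts. Detected genes numbered 17607 to 25762 after SCD (median 20755) and 17339 to 20863 after WSD (median 18938). The ranges overlapped, and SCD 1, SCD 3 and SCD 6 lay above every WSD blastocyst, while SCD 5 lay below most of them. On average SCD blastocysts had 20811 ± 2856 genes (mean ± SD, n = 6) and WSD blastocysts 18827 ± 1182 (n = 9), and the difference of -1984 genes did not exceed the spread between blastocysts (two-sided exact permutation test, p = 0.0679; adjusted over 5 library measures, p = 0.133). Without SCD 3 the difference was -993 genes (two-sided exact permutation test, p = 0.214). Counting genes at 1 CPM or more instead of 1 count, the difference was -838 genes (two-sided exact permutation test, p = 0.026). SCD 3 had 15790 such genes and the next SCD blastocyst 12498. Without SCD 3, a setting added after the data were seen, that difference was -223 genes (two-sided exact permutation test, p = 0.126). The other 4 measures were the log10 total count, the genes detected at equal depth, the share of counts on the 20 highest genes and the share on genes too low to be tested, and their adjusted p-values from the exact test ran from 0.133 to 0.9.

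Fragmented blastocysts differed mainly along an axis led by KRT19 at its low end, and the diets overlapped on it. A principal component analysis (PCA) of the 500 most variable genes placed 55.9% of their variance on PC1 and 10.8% on PC2. Genes with high expression at low PC1 included the keratin gene KRT19, the proton pump gene ATP12A, the matrix genes SPARC and FN1, the peptidase gene ENPEP, and the steroid enzyme genes HSD3B1 and STS. At high PC1 the leading genes included the transcription factor genes NOTO and SPIC, the RNA-binding protein gene NANOS1, the neurofilament gene NEFL and the protease gene CTSV. PC1 ranged from -29.1 in SCD 1 to 21.8 in SCD 7 after SCD, and from -25.4 in WSD 8 to 35.3 in WSD 3 after WSD. SCD 7 lay with WSD 1 to WSD 5 at high PC1, and WSD 6, WSD 7, WSD 8 and WSD 18 lay with the other SCD blastocysts at low PC1. Blastocysts at high PC1 also had the lowest sums of trophectoderm markers, described below, at most 7581 CPM against at least 8610 CPM in the others. KRT19 and ENPEP are among those markers.

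KRT19 illustrates the axis. Its expression spanned 76.0 to 2574 CPM (median 1624) after SCD and 6.07 to 3040 CPM (median 59.1) after WSD. SCD 7 was the lowest SCD blastocyst, and 5 of the 9 WSD blastocysts lay below it, while WSD 8 was the highest of all 15. CTSV went the other way, at 86.6 to 1231 CPM (median 157) after SCD and 226 to 2592 CPM (median 1543) after WSD. SCD 7 was the highest SCD blastocyst for CTSV, and only WSD 1 to WSD 5 lay above it. SCD blastocysts had a PC1 of -15.8 ± 19.1 (mean ± SD, n = 6) and WSD blastocysts 10.5 ± 25.7 (n = 9), a difference of 26.4 or 1.01 SD of PC1 (two-sided exact permutation test, p = 0.0416). When each blastocyst was left out in turn, the exact permutation p-value ran from 0.022 to 0.0979 and was 0.05 or more in 10 of 15 cases.

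**Figure D1:**
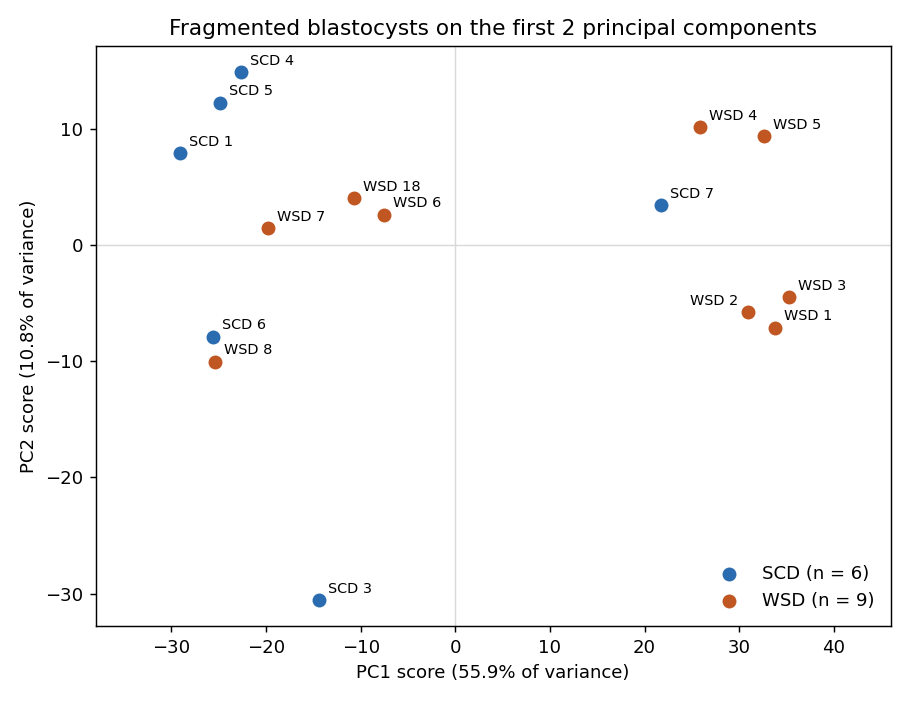
Scores of the 15 fragmented blastocysts on PC1 (horizontal axis, 55.9% of the variance) and PC2 (vertical axis, 10.8%) of the 500 most variable genes, with SCD in blue, WSD in orange and each point labelled by its blastocyst. SCD 7 lies at high PC1 with 5 WSD blastocysts, and SCD 3 lies alone at a PC2 of -30.5.

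Gene expression in fragmented blastocysts differed between the diets by less than the test could separate from the spread between blastocysts. With the quasi-likelihood F test of edgeR, 0 of 13951 genes (0%) had a Benjamini-Hochberg adjusted p-value under 0.05, the smallest being 0.570. Without adjustment, p was under 0.05 in 1159 genes (8.31%), of which 541 (3.88% of the genes tested) had a higher mean after WSD and 618 (4.43%) had a lower mean. The Wald test of DESeq2 called 23 genes, with 13 higher and 10 lower after WSD, and edgeR with legacy = FALSE called 1, LANCL3. Across 14 alternative settings the smallest adjusted p-value ran from 0.0114 to 0.798. Without SCD 3, edgeR's test called 0 of 14138 genes (0%), with 1144 (8.09%) at an unadjusted p-value under 0.05, of which 614 (4.34%) were higher and 530 (3.75%) lower. The 1144 shared 735 genes with the 1159. Without SCD 7 it called 0 of 14260 (0%), and 1730 (12.1%) had an unadjusted p-value under 0.05, 898 (6.3%) higher and 832 (5.83%) lower. The count at an unadjusted p-value under 0.05 was lowest without SCD 1, at 765.

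The estimated differences were nevertheless large for many genes. The median size of the log2 fold change over all genes tested was 0.32, and 1688 genes differed more than 2-fold and 230 more than 4-fold in either direction. Of the 1688, 613 had an unadjusted p-value under 0.05 by edgeR. The median standard error (SE), estimated from the F statistic, was 0.38 on the log2 scale. The median log2 fold change was -0.03, which the TMM scaling holds near 0. The spread between blastocysts of the same diet, as the median over genes of the SD of log2 CPM, was 0.700 after SCD and 0.721 after WSD. After SCD it was 0.566 when SCD 3 was left out, and 0.507 without SCD 3 and SCD 7.

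The 10 genes with the smallest p-values in each direction were followed by name. Those with a higher mean after WSD were PHOSPHO1, MCRIP2, SPTLC2, CHD1L, YIF1B, SLC22A5, REM2, SUSD3, TRUB1 and ITPKA, and those with a lower mean were CCNG2, ARAP2, LCP1, LANCL3, DIPK2A, VASN, PLAU, KCTD10, ENPP1 and FBLN2. Their unadjusted p-values ran from 0.000367 for CCNG2 to 0.0015 for ITPKA by edgeR, and each had an adjusted p-value of 0.570. All 20 kept their direction in every alternative in which they were tested and with each blastocyst left out in turn, and 18 of the 20 were among the 23 genes DESeq2 called, YIF1B and KCTD10 being the exceptions. That direction is part of how they were chosen.

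Among the genes with a higher mean after WSD, SPTLC2 encodes a catalytic subunit of serine palmitoyltransferase, which joins serine to palmitoyl-CoA in the opening step of sphingolipid synthesis. Its expression spanned 129 to 171 CPM (median 142) after SCD and 175 to 280 CPM (median 215) after WSD. Every WSD blastocyst lay above every SCD blastocyst, with SCD 1 the highest of the SCD group and WSD 7 the lowest of the WSD group. In log2 terms the difference was 0.61 (SE about 0.15), or 1.53-fold, and 0.58 without SCD 3. SLC22A5 encodes the plasma membrane carnitine transporter, and carnitine carries long fatty acids into mitochondria. Its expression spanned 1.91 to 6.71 CPM (median 5.33) after SCD and 6.85 to 21.5 CPM (median 12.7) after WSD. The groups again did not overlap, although SCD 7, WSD 7 and WSD 18 lay close together. The log2 fold change was 1.52 (SE about 0.39), or 2.87-fold, and 1.37 without SCD 3.

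PHOSPHO1, a phosphatase that acts on phosphocholine and phosphoethanolamine, spanned 15.9 to 33.5 CPM (median 25.1) after SCD and 28.6 to 70.8 CPM (median 47.7) after WSD. Of the 9 WSD blastocysts, 8 lay above every SCD blastocyst, and WSD 18 fell within the SCD range. Its log2 fold change was 1.01 (SE about 0.25). CHD1L, a chromatin remodeller recruited to sites of DNA damage, had a median of 28.3 CPM after SCD (9.64 to 41.8 CPM) and 55.0 CPM after WSD (33.9 to 84.7 CPM). TRUB1, which makes pseudouridine in RNA, had a median of 2.18 CPM after SCD (0.921 to 3.23 CPM) and 5.75 CPM after WSD (2.53 to 10.4 CPM). In each of CHD1L and TRUB1, 8 of the 9 WSD blastocysts lay above every SCD blastocyst.

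REM2, a small GTP-binding protein that restrains voltage-gated calcium channels, was nearly absent after SCD, at 0 to 0.657 CPM (median 0.0719), and reached 0.301 to 6.33 CPM (median 2.60) after WSD. WSD 1 to WSD 5 held its highest values, and SCD 7 was the highest of the SCD group. ITPKA, a kinase of inositol trisphosphate, had a median of 0.845 CPM after SCD (0.496 to 4.64 CPM) and 11.8 CPM after WSD (0.969 to 28.7 CPM), and 5 of the 9 WSD blastocysts lay above every SCD blastocyst. MCRIP2 had a median of 15.6 CPM after SCD (7.28 to 40.1 CPM) and 54.2 CPM after WSD (20.6 to 104 CPM), with 7 WSD blastocysts above the SCD range. SUSD3, a membrane protein with a sushi domain, had a median of 10.8 CPM after SCD (6.83 to 30.1 CPM, with SCD 7 highest) and 29.7 CPM after WSD (16.2 to 101 CPM). YIF1B, a membrane protein of transport between the endoplasmic reticulum and the Golgi, had the smallest of these differences after SPTLC2, with a log2 fold change of 0.79 (SE about 0.20).

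Among the genes with a lower mean after WSD, CCNG2, an atypical cyclin linked to arrest of the cell cycle, spanned 33.1 to 123 CPM (median 93.2) after SCD and 9.12 to 51.2 CPM (median 27.5) after WSD. SCD 7 was the lowest of the SCD group, and 7 of the 9 WSD blastocysts lay below it. In log2 terms the difference was -1.57 (SE about 0.36), and -1.67 without SCD 3. LCP1, which bundles actin filaments, spanned 181 to 835 CPM (median 240) after SCD and 29.2 to 233 CPM (median 119) after WSD. The highest value was that of SCD 1, and 8 of the 9 WSD blastocysts lay below every SCD blastocyst, the exception being WSD 7. The log2 fold change was -1.64 (SE about 0.39), and -1.20 without SCD 1.

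LANCL3, an X-linked gene of the lanthionine synthetase-like family, was low but present in every SCD blastocyst and close to absent after WSD. It spanned 1.38 to 4.96 CPM (median 2.64) after SCD and 0 to 0.880 CPM (median 0.234) after WSD. The groups did not overlap, and the highest count was 76 after SCD and 23 after WSD. In log2 terms the difference was -3.13 (SE about 0.75), and -2.89 without SCD 3. LANCL3 was the gene called with legacy = FALSE.

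PLAU, the urokinase that activates plasminogen during tissue invasion, spanned 1.49 to 137 CPM (median 10.7) after SCD and 0.200 to 9.22 CPM (median 1.55) after WSD. The value of 137 CPM was SCD 1 alone, and the next SCD blastocyst, SCD 6, had 19.1 CPM. The log2 fold change was -3.71 (SE about 0.91), and -1.99 without SCD 1. ENPP1, which makes pyrophosphate from extracellular nucleotides, had a median of 10.0 CPM after SCD (6.87 to 74.7 CPM) and 4.28 CPM after WSD (2.30 to 12.1 CPM), and its log2 fold change of -2.14 became -1.33 without SCD 1. FBLN2, a fibulin of basement membranes, had a median of 42.7 CPM after SCD (5.50 to 69.8 CPM) and 8.56 CPM after WSD (1.04 to 17.9 CPM). VASN, a membrane protein that binds TGF-beta, had a median of 10.7 CPM after SCD (4.46 to 19.8 CPM) and 2.43 CPM after WSD (0.838 to 5.93 CPM). All 9 WSD blastocysts lay below the SCD median in FBLN2 and in VASN, but in FBLN2 only 2 of them lay below every SCD blastocyst.

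The other lower genes were ARAP2, a regulator of Arf GTPases at focal adhesions, DIPK2A, and KCTD10, an adaptor of a cullin ubiquitin ligase. ARAP2 had a median of 4.13 CPM after SCD (0.761 to 11.1 CPM) and 0.759 CPM after WSD (0.115 to 1.80 CPM). Its highest value was in SCD 3, and the log2 fold change of -2.55 (SE about 0.59) became -2.09 without it. DIPK2A had a median of 37.5 CPM after SCD (15.7 to 78.1 CPM) and 10.5 CPM after WSD (5.07 to 27.2 CPM). KCTD10 had the smallest difference of the 10, with a log2 fold change of -0.92 (SE about 0.23).

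**Figure D2:**
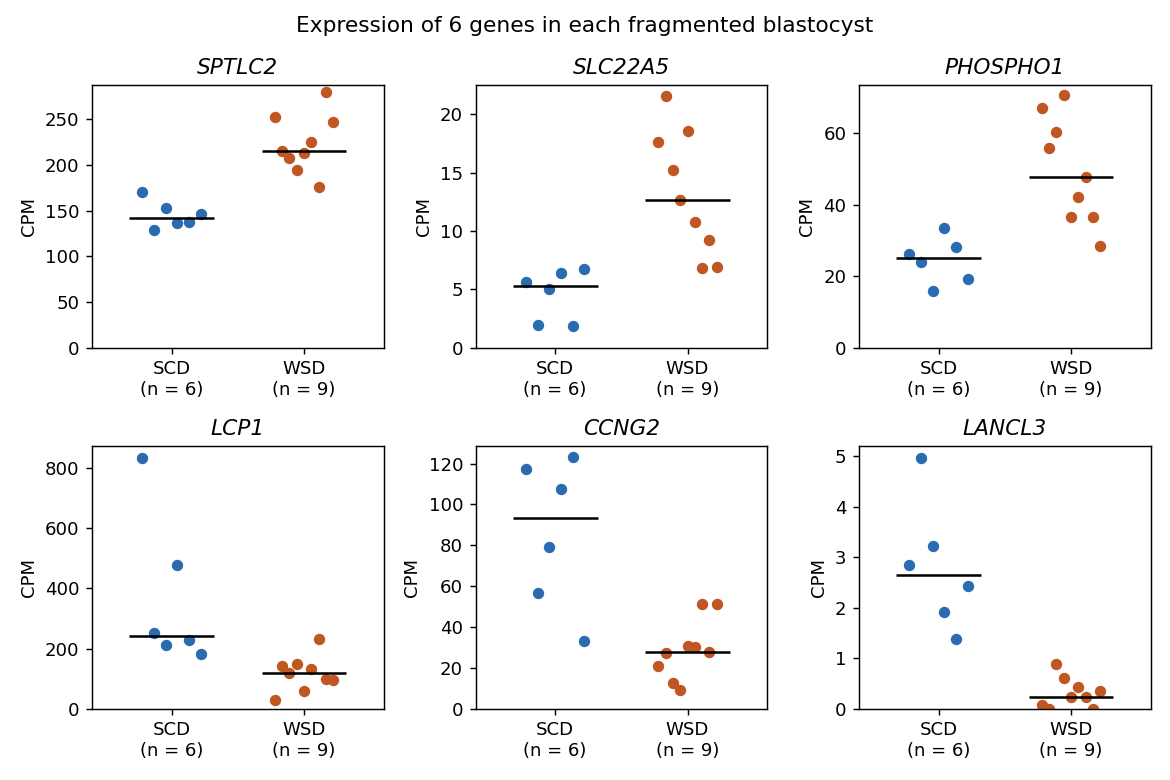
CPM (vertical axes, each starting at 0) of 6 genes in each fragmented blastocyst, with SCD (n = 6) in blue, WSD (n = 9) in orange and a black line at the median of each diet. The diets do not overlap in SPTLC2, SLC22A5 and LANCL3, and overlap in PHOSPHO1, LCP1 and CCNG2.

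In 8 of the 13951 genes the CPM of the WSD blastocysts did not overlap those of the SCD blastocysts, 4 higher (0.0287%) and 4 lower (0.0287%) after WSD. Without any diet difference a gene would separate completely in a given direction once per 5005 regroupings, so chance alone gives some such genes. Besides SPTLC2 (ENSMMUG00000013556, chr7:139624355-139732929 on the minus strand of Mmul_10) and SLC22A5 (ENSMMUG00000007087, chr6:129820761-129846380 on the plus strand), the higher genes were GRSF1 (ENSMMUG00000000380, chr5:62933848-62954693 on the plus strand) and PNKD (ENSMMUG00000038299, chr12:105672775-105751700 on the plus strand). Besides LANCL3 (ENSMMUG00000006967, chrX:37379009-37481734 on the plus strand), the lower genes were SERINC1 (ENSMMUG00000007911, chr4:25990564-26017565 on the minus strand), KIF25 (ENSMMUG00000020444, chr4:2616811-2683910 on the minus strand) and SKIDA1 (ENSMMUG00000023647, chr9:22557769-22568894 on the minus strand). GRSF1, PNKD, SERINC1, KIF25 and SKIDA1 were singled out after their values were seen. GRSF1, which binds RNA in mitochondrial granules, had 149 to 222 CPM (median 194) after SCD and 223 to 378 CPM (median 265) after WSD. The highest SCD and the lowest WSD blastocyst were thus almost equal. SERINC1, a membrane protein linked to serine-derived lipids, had 67.7 to 114 CPM (median 88.0) after SCD and 20.6 to 67.1 CPM (median 53.6) after WSD. KIF25, a kinesin, had 1.59 to 5.84 CPM (median 3.09) after SCD and 0.440 to 1.55 CPM (median 1.15) after WSD. In SERINC1 and KIF25, too, the nearest SCD and WSD blastocysts were almost equal.

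The markers of all 3 blastocyst lineages were found in the fragmented blastocysts of both diets, and their amounts varied widely within each diet. Because each sample was a whole blastocyst, fewer cells of a type and less RNA per cell cannot be told apart. Of 14 epiblast and pluripotency genes tested, 1 had an unadjusted p-value under 0.05 by edgeR, higher after WSD, a share near the 8.31% of all genes. Means were higher in 9 of the 14 and lower in 5, and the median log2 fold change was 0.05 against -0.03 over all genes tested. Without SCD 3, and likewise without SCD 7, means were higher in 7 and lower in 7. The sum spanned 1223 to 2230 CPM (median 1540) after SCD and 1422 to 2989 CPM (median 2275) after WSD, and DPPA2 made up 28.6% of it. WSD 1 to WSD 5 and WSD 8 lay above every SCD blastocyst, of which SCD 7 and SCD 3 were the highest. Most of the 2221 CPM of SCD 3 was DPPA2, at 1471 CPM, against at most 460 CPM in the other SCD blastocysts. The log2 fold change of DPPA2 was 0.04, and 0.59 without SCD 3. Without SCD 3, and without SCD 7, 2 genes of the list were higher and 1 lower at an unadjusted p-value under 0.05. Over all genes, 4.34% were higher and 3.75% lower without SCD 3, and 6.3% and 5.83% without SCD 7. With all blastocysts, the 1 gene at an unadjusted p-value under 0.05 by edgeR was POU5F1, the central pluripotency factor. It had 355 to 659 CPM after SCD (median 416 CPM) and 424 to 976 CPM after WSD (median 696 CPM). All 9 WSD blastocysts lay above the SCD median and 5 lay above every SCD blastocyst, of which SCD 7 was the highest. In log2 terms the difference was 0.59 (SE about 0.21; adjusted p = 0.570 by edgeR). NANOG showed no such difference, with a median of 83.6 CPM after SCD (18.4 to 112 CPM) and 75.3 CPM after WSD (54.5 to 119 CPM). The largest differences of the list were lower means, with log2 fold changes of -2.03 (SE about 1.02) for LEFTY2 and -1.58 (SE about 0.99) for NODAL.

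Trophectoderm markers had lower means after WSD in 10 of the 11 genes tested, but none had an unadjusted p-value under 0.05 in either direction by edgeR. Their median log2 fold change was -0.41. Without SCD 3 it was -0.46, with 1 gene lower at an unadjusted p-value under 0.05, and without SCD 7 it was -0.70 over 12 genes, with 0. In these fits 3.75% and 5.83% of all genes were lower. GATA2 had a median of 646 CPM after SCD (156 to 1220 CPM) and 313 CPM after WSD (36.7 to 933 CPM), with a log2 fold change of -1.01 (SE about 0.61). CDX2 had a median of 218 CPM after SCD (48.0 to 288 CPM) and 119 CPM after WSD (20.2 to 317 CPM). The summed trophectoderm markers spanned 5675 to 16864 CPM (median 13629) after SCD and 3554 to 23955 CPM (median 7581) after WSD. SCD 7 was far below the other SCD blastocysts, of which the next had 12246 CPM, and WSD 8 was the highest of all 15. KRT18 alone made up 48.9% of the sum.

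Primitive endoderm markers were lower on average after WSD in 12 of 13 genes, again with none at an unadjusted p-value under 0.05, and their median log2 fold change was -0.78. The summed markers spanned 739 to 5180 CPM (median 4002) after SCD and 854 to 6051 CPM (median 1767) after WSD. SCD 3 was the lowest of all 15 blastocysts and WSD 8 the highest, and APOA1 made up 32.7% of the sum. COL4A2, a collagen of the basement membrane, had a median of 162 CPM after SCD (44.1 to 541 CPM) and 90.6 CPM after WSD (7.31 to 325 CPM). GATA6 was the exception, with a median of 330 CPM after SCD and 358 CPM after WSD. Without SCD 3 the median log2 fold change of the list was -1.02, with 0 genes at an unadjusted p-value under 0.05. Without SCD 7 it was -0.91, with 1 gene lower, where 5.83% of all genes were. The part of these lineage markers in the differences of other genes was not tested.

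Cumulus and granulosa cells surround the oocyte and could be carried into a sample. The study stripped such cells from its oocytes by pipetting before fertilization, with hyaluronidase for oocytes aspirated in bulk. Of 12 of their genes, 5 were expressed highly enough to be tested, and 0 had an unadjusted p-value under 0.05 by edgeR. Their median log2 fold change was -0.41 in the fragmented blastocysts, -0.63 without SCD 3 and -0.51 over 6 genes without SCD 7, with 1 gene lower at an unadjusted p-value under 0.05 in each of the latter. Among all genes, 3.75% were lower at that threshold without SCD 3 and 5.83% without SCD 7. The sum spanned 222 to 288 CPM (median 245) after SCD and 146 to 474 CPM (median 283) after WSD. GJA1, a gap junction gene that embryos also express, made up 77.3% of it. Of the list, AMH, FSHR, FOXL2, PTX3 and LHCGR had medians of at most 0.0375 CPM in either diet, and FOXL2 reached 1.20 CPM in 1 SCD blastocyst. Other genes of the list were higher. CYP19A1 had a median of 0.770 CPM after SCD (0.104 to 1.91 CPM) and 0.0931 CPM after WSD (0 to 6.55 CPM). INHA had a median of 4.20 CPM after SCD (0.208 to 17.6 CPM) and 0.280 CPM after WSD (0 to 33.5 CPM). HAS2 had a median of 4.59 CPM after SCD (1.73 to 12.2 CPM) and 1.16 CPM after WSD (0.115 to 5.97 CPM). For STAR the median was 38.2 CPM after SCD (23.1 to 101 CPM) and 44.3 CPM after WSD (33.6 to 88.8 CPM).

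A list of 15 genes of mitochondrial translation, protein import and transport was taken from the study, which chose them from blastocysts that include these, so their direction here is not independent evidence. SLC25A2, which the study also names, was not in the list. All 15 had a higher mean after WSD, 9 of them with an unadjusted p-value under 0.05 by edgeR, against 3.88% of all genes, and 0 with an adjusted p-value under 0.05. The median log2 fold change was 0.45, against -0.03 over all genes tested. SLC25A20, which carries acylcarnitines across the inner mitochondrial membrane, had a median of 39.6 CPM after SCD (31.1 to 52.7 CPM) and 61.2 CPM after WSD (37.1 to 86.4 CPM), and 7 of the 9 WSD blastocysts lay above every SCD blastocyst. SLC25A10, the dicarboxylate carrier of mitochondria, had a median of 281 CPM after SCD (179 to 356 CPM) and 414 CPM after WSD (281 to 595 CPM), and 5 WSD blastocysts lay above every SCD blastocyst. TOMM40, the pore through which proteins enter mitochondria, had a median of 438 CPM after SCD (365 to 785 CPM) and 655 CPM after WSD (533 to 1268 CPM). The differences ran from a log2 fold change of 0.35 for MRPL45 to 0.63 for SLC25A20. Summed over the list, SCD 7 with 4097 CPM was the highest SCD blastocyst and lay above WSD 5, WSD 6, WSD 7 and WSD 18. Without SCD 3, 11 of the 15 had an unadjusted p-value under 0.05, against 4.34% of all genes in that direction, and the median was 0.58. Without SCD 7 there were 11, against 6.3%, with a median of 0.57.

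A second list the study chose in the same way holds 13 genes of BMP signalling, adhesion and differentiation, and is likewise not independent evidence. All 13 had a lower mean after WSD, 6 of them with an unadjusted p-value under 0.05 by edgeR, against 4.43% of all genes, and 0 at an adjusted p-value under 0.05. The median log2 fold change was -0.80, and it was -0.95 without SCD 3 and -0.95 without SCD 7. Each time 7 genes were lower at an unadjusted p-value under 0.05, against 3.75% of all genes without SCD 3 and 5.83% without SCD 7. HAND1, a transcription factor of trophoblast and mesoderm, spanned 21.3 to 839 CPM (median 121) after SCD and 1.20 to 107 CPM (median 14.7) after WSD. All WSD blastocysts lay below the SCD median and 5 lay below every SCD blastocyst, with SCD 7 the lowest and SCD 1 the highest of the SCD group. Its log2 fold change was -3.11 (SE about 0.85). BMPR2, a receptor for bone morphogenetic proteins, had a median of 61.3 CPM after SCD (16.1 to 159 CPM) and 35.3 CPM after WSD (21.8 to 49.9 CPM). CTNNB1, which encodes beta-catenin, had a median of 717 CPM after SCD (359 to 830 CPM) and 319 CPM after WSD (239 to 627 CPM). The list shares FOXA2, BMP2, COL4A1 and COL4A2 with the primitive endoderm markers.

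Of the 10 genes the study names for their largest differences, 9 could be matched and tested. By edgeR 4 had an unadjusted p-value under 0.05 and a higher mean after WSD, and 2 had one and a lower mean, where all genes gave 3.88% and 4.43%. Without SCD 3 the counts were 3 and 2, where all genes gave 4.34% and 3.75%. Without SCD 7 they were 4 and 2, where all genes gave 6.3% and 5.83%. The gene lost without SCD 3 was NOTO, whose log2 fold change was 3.18 with SCD 3 and 2.95 without it. The median log2 fold change was 0.03, -0.23 without SCD 3 and -0.23 without SCD 7. This choice, too, was made on these samples. ACSM4, a medium-chain acyl-CoA synthetase, spanned 0 to 1.49 CPM (median 0.0982) after SCD and 0 to 49.1 CPM (median 4.42) after WSD. ZNF750, a regulator of epithelial differentiation, spanned 0.0692 to 13.6 CPM (median 7.66) after SCD and 0 to 2.60 CPM (median 0.0465) after WSD. SSTR5, a somatostatin receptor, did not follow the diets among fragmented blastocysts. It spanned 0 to 28.6 CPM (median 0.610) after SCD and 0 to 32.5 CPM (median 0.0799) after WSD. Its log2 fold change was 0.03 (SE about 1.59), against -3.53 in non-fragmented blastocysts, and the interaction of 3.54 had an adjusted p-value of 0.999 by edgeR.

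Genes of cholesterol and fatty acid synthesis and storage, a list chosen for the diet rather than taken from the study, had lower means after WSD in 13 of 17 genes. None had an unadjusted p-value under 0.05 by edgeR in either direction, and the median log2 fold change was -0.36. Without SCD 3 the median was -0.56 and 2 genes, INSIG1 and SREBF1, were lower at an unadjusted p-value under 0.05, where 3.75% of all genes were. Without SCD 7 it was -0.38, with INSIG1 alone, where 5.83% of all genes were lower. INSIG1, which holds back sterol-regulated transcription when sterols are plentiful, had a median of 791 CPM after SCD (209 to 1140 CPM) and 197 CPM after WSD (96.5 to 930 CPM). WSD 1 to WSD 5 lay below every SCD blastocyst, SCD 7 was the lowest of the SCD group and SCD 3 the next. PLIN2, which coats lipid droplets, had a median of 257 CPM after SCD (198 to 288 CPM) and 261 CPM after WSD (245 to 369 CPM).

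**Figure D3:**
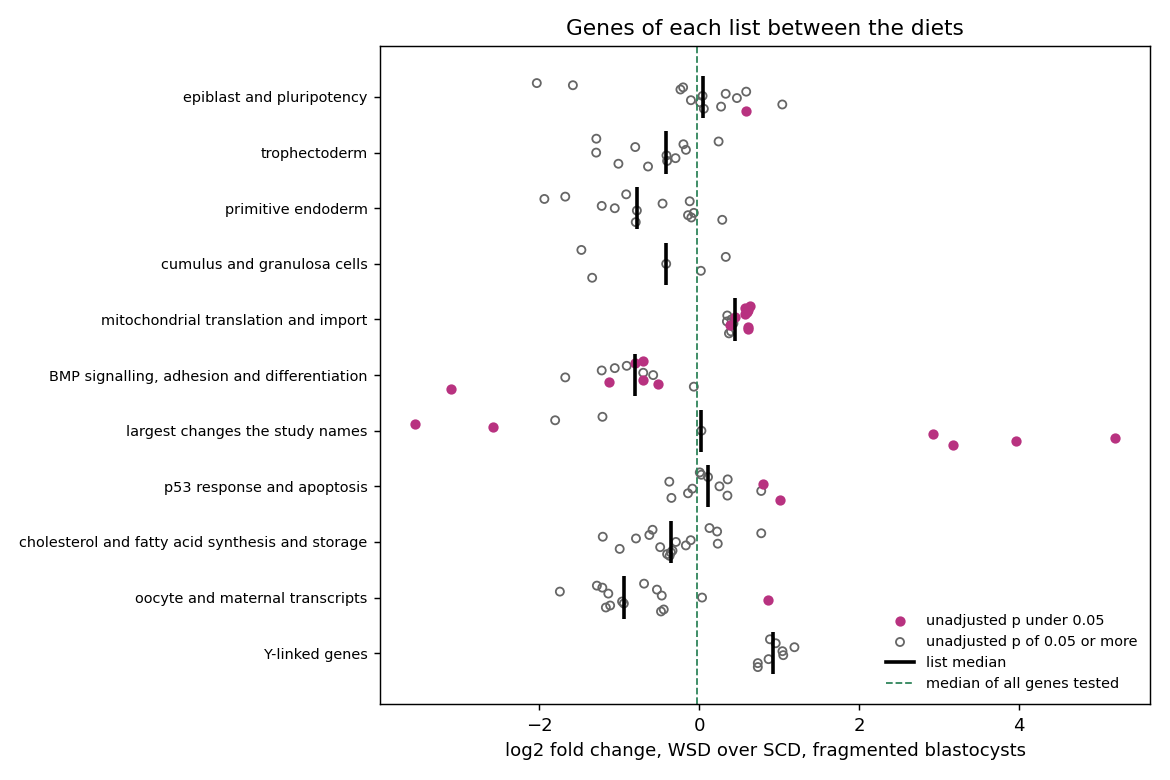
Log2 fold change of WSD over SCD (horizontal axis) for the tested genes of each list (rows) in fragmented blastocysts, with filled points for an unadjusted p-value under 0.05, open points for the others, a black bar at each list's median and a dashed line at the median of all genes tested, -0.03. The mitochondrial list lies to the right of the dashed line with a median of 0.45, and the list of BMP signalling, adhesion and differentiation lies to its left with a median of -0.80.

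Embryo sex was not balanced between the diets. Y-linked genes were expressed in SCD 6 and SCD 7, 2 of the 6 SCD blastocysts, and in WSD 1, WSD 4, WSD 5, WSD 7, WSD 8 and WSD 18, 6 of the 9 WSD blastocysts. The sum over 8 Y-linked genes, a list chosen after the data were seen, was at least 267 CPM in each of these and at most 3.90 CPM in the others. The 8 genes had a median log2 fold change of 0.92, and 0 of them had an unadjusted p-value under 0.05 by edgeR. Their median was 0.66 without SCD 3 and 1.80 without SCD 7, again with 0 such genes. With this sum as a covariate, also chosen after the data were seen, edgeR called 0 genes between the diets, and 810 had an unadjusted p-value under 0.05. Of the 1159 genes of the main comparison, 684 still had an unadjusted p-value under 0.05 by edgeR in that model. All 1159 kept their direction, but that direction is part of how they were chosen.

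Non-fragmented blastocysts were compared in the same way to see whether the diet difference was shared. They were 8 SCD and 8 WSD blastocysts, none of which entered the comparison of fragmented blastocysts, although both comparisons divide COS #1 from COS #2. By edgeR 0 of 12387 genes (0%) had an adjusted p-value under 0.05, with a smallest adjusted p-value of 0.123, and 2171 (17.5%) had an unadjusted p-value under 0.05. DESeq2's Wald test called 227 genes, and edgeR called 48 with legacy = FALSE and 9 without a filter on low counts. The group sizes differ from those of the fragmented blastocysts, and the shares of the 2 classes were not compared by a test.

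The direction of the diet difference was often the same in both classes. Of 12349 genes tested in both, 8230 (66.6%) had the same sign, and the log2 fold changes had a Pearson correlation of 0.538 across genes, which are not independent replicates. Of the 1039 of these genes with an unadjusted p-value under 0.05 in fragmented blastocysts, 941 (90.6%) had the same sign in non-fragmented blastocysts. In 411 genes the unadjusted p-value was under 0.05 in both classes, and 410 of the 411 had the same sign. Without SCD 3 the share of the same sign was 72.3% of all genes tested in both. No test was made of these shares.

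Of the 20 named genes, 18 could be tested in non-fragmented blastocysts, and all 18 had the same sign there. REM2 and LANCL3 were too low to be tested. LANCL3 had a median of 0.638 CPM in non-fragmented SCD blastocysts (0 to 1.94 CPM) and 0.228 CPM in non-fragmented WSD blastocysts (0 to 4.19 CPM). LCP1 had a log2 fold change of -1.45 (SE about 0.39) in non-fragmented blastocysts, close to its value of -1.64 in fragmented ones. MCRIP2 had 1.62 (SE about 0.45), against 1.61. SPTLC2 and SLC22A5 were among those with smaller differences there, with log2 fold changes of 0.10 (SE about 0.18) and 0.30 (SE about 0.26). For SLC22A5 the non-fragmented SCD blastocysts had a median of 10.6 CPM, above every fragmented SCD blastocyst, while the non-fragmented WSD blastocysts had a median of 12.6 CPM, near the 12.7 CPM of the fragmented ones. All 15 genes of the mitochondrial list were also tested, and 13 had an unadjusted p-value under 0.05 and a higher mean after WSD, where 1043 of all 12387 genes (8.42%) did, but these blastocysts too were among those used to choose the list.

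Whether the diet difference itself depended on fragmentation was asked with all 31 blastocysts in 4 groups. By edgeR 0 of 15285 genes (0%) had an adjusted p-value under 0.05 for the term of diet by fragmentation, with a smallest adjusted p-value of 0.999, and 501 (3.28%) had an unadjusted p-value under 0.05. DESeq2's Wald test called 1 gene, ENSMMUG00000045289, which has no symbol and whose median was 0 CPM in 3 of the 4 groups and 0.116 CPM in fragmented WSD blastocysts. Its highest value was 10.1 CPM in fragmented SCD blastocysts, 2.46 CPM in fragmented WSD and 4.17 CPM in non-fragmented WSD blastocysts, and it had no count in the non-fragmented SCD group. SPTLC2 had an interaction of 0.54 on the log2 scale, SLC22A5 one of 1.24 and LANCL3 one of -3.51, with an adjusted p-value of 0.999 each by edgeR.

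**Figure D4:**
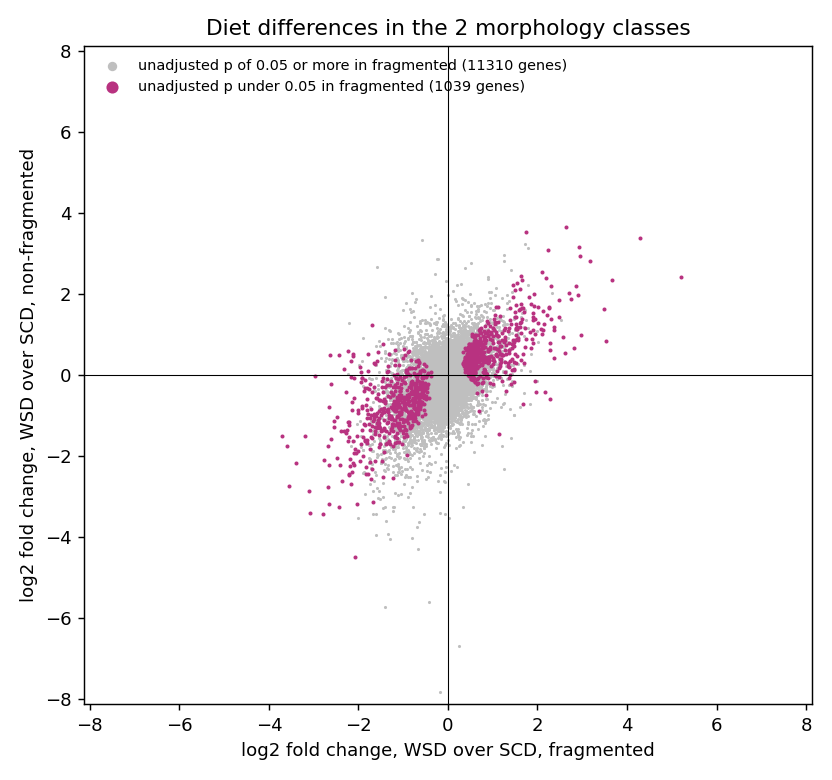
Log2 fold change of WSD over SCD in fragmented blastocysts (horizontal axis) and in non-fragmented blastocysts (vertical axis) for the 12349 genes tested in both, with the 1039 genes at an unadjusted p-value under 0.05 in fragmented blastocysts in colour and the other 11310 in grey. Of the coloured genes, 941 lie in the quadrants where both classes have the same sign.

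Female of origin is not in the labels and did not enter the tests, so that blastocysts sharing a mother count as independent. The study states that its sequenced blastocysts came from more females after WSD than after SCD, and that the SCD females were among the WSD females. Differences between females therefore cannot be told apart from the spread between blastocysts, or fully from diet. Blastocysts of the same female could not be paired across the diets.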

How the data were processed

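Gene counts deposited by the authors were used as given. Which strand column of STAR's counts was kept is not stated, so reads of genes that overlap on opposite strands may not be told apart. The authors made them with bcl2fastq, FastQC 0.11.8, Trimmomatic 0.39 and STAR 2.7.0 on Mmul_10 with Ensembl annotation 99. STAR counts only uniquely placed reads, which lowers the counts of genes with near-identical copies, and no molecular identifiers removed copies made by amplification. Symbols came from a separate table of Ensembl identifiers. In R 4.3.3, genes were filtered with filterByExpr and scaled by TMM. The diets were compared with edgeR 4.0.16 (quasi-likelihood F test, legacy = TRUE, Benjamini-Hochberg adjusted p under 0.05) and DESeq2 1.42.0. Standard errors are approximate: the size of the log2 fold change over the root of its F statistic. Library measures were compared by exact permutation over all regroupings. The code was tested on simulated data.

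Lists covered epiblast, trophectoderm, primitive endoderm, cumulus and granulosa cells, cholesterol and fatty acid synthesis and storage, p53 response and apoptosis, and 3 lists of genes the study names. Lists of oocyte transcripts and Y-linked genes were added after the data were seen. The members compared and the lists were chosen with earlier results of these data known.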

Additional observations from a re-analysis of the deposited data

Results flagged for a closer look

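Of 76 groups of values searched for a blastocyst far from the others of its diet, 5 held such a value, where chance gives about 3.8. Genes too low to be tested took 1.03% of the counts of SCD 3, against 0.220% in the next SCD blastocyst. SCD 7 had a PC1 score of 21.8, and the next SCD blastocyst had -14.5. SCD 7 had a trophectoderm sum of 5675 CPM, and the next SCD blastocyst had 12246 CPM. SCD 4 had 43.3 CPM of KCTD10, and the next SCD blastocyst had 78.9 CPM. WSD 8 had a median distance of 212 to the other WSD blastocysts, and the next had 184.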

How the results depend on the processing

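Group sizes of 6 and 9 blastocysts limited which differences stood out from the spread between blastocysts. Diet and COS cycle divided the blastocysts in the same way, and anything else that changed between the cycles, such as the age of the females, cannot be told apart from diet. Female of origin did not enter the tests, which take blastocysts sharing a mother as independent and leave females that gave blastocysts on both diets unpaired. Whole blastocysts were sequenced after amplification, so that numbers of cells and RNA per cell cannot be told apart. Genes with near-identical copies were undercounted.

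For the fragmented blastocysts, where edgeR's test called 0 genes, DESeq2's Wald test called 23 (13 higher and 10 lower after WSD) and edgeR with legacy = FALSE called 1, which was lower. An unadjusted p-value under 0.05 gave 1159 genes, 541 higher and 618 lower. All other alternatives called 0 genes. Their unadjusted counts were 1150 with RLE scaling, 4744 of 31668 without a filter, 1048 when genes had to reach 1 CPM in 6 blastocysts, 1146 with robust = TRUE and 1247 with all 31 blastocysts in 4 groups. With a covariate they were 934 for the log10 total count and 831 for the number of detected genes, where 409 of the 1159 genes still had an unadjusted p-value under 0.05. The analyses chosen after the data were seen gave 810 with the Y-linked sum, 1309 with the oocyte sum and 1800 without SCD 3 and SCD 7 together. With each blastocyst left out in turn, 0 genes were called every time, and the unadjusted counts ran from 765 without SCD 1 to 1730 without SCD 7.

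A replicate block on the number in the sample title called 0 genes, with 1145 at an unadjusted p-value under 0.05. The labels do not say that blastocysts of equal number share a female or anything else. Over the 6 numbers present in both diets, the correlation of blastocysts of equal number had a mean of -0.0624 and ran from -0.418 to 0.113. Of the 6, 2 correlated best with their own number.

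Among non-fragmented blastocysts DESeq2's Wald test called 227 genes, edgeR with legacy = FALSE 48, edgeR without a filter 9 and edgeR with RLE scaling 0. Leaving out 1 blastocyst called from 0 to 14 genes, with 14 without WSD 9, 6 without WSD 17, 2 without SCD 13 and 1 without WSD 11. For the term of diet by fragmentation DESeq2's Wald test called 1 gene, ENSMMUG00000045289, and each blastocyst left out in turn gave 0.

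The difference in detected genes was -838 at a threshold of at least 1 CPM (exact permutation test, p = 0.026), and -223 at that threshold without SCD 3 (exact permutation test, p = 0.126), a setting added after the data were seen. At the threshold of 1 count, with 1 blastocyst left out, it ran from -2624 genes without SCD 5 to -993 genes without SCD 3, with exact permutation p-values from 0.0135 to 0.214, which were under 0.05 without SCD 4, SCD 5 or WSD 7. The difference in PC1 was 1.01 SD with 1000 genes and 1.01 SD on log2 CPM. With 1 blastocyst left out it ran from 0.908 to 1.27 SD, with exact permutation p-values from 0.022 to 0.0979, of which 10 of 15 were 0.05 or more.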

Other observations

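Cells under stress stabilize p53, which raises CDKN1A to halt the cell cycle. Of 13 genes of the p53 response and apoptosis tested in fragmented blastocysts, 2 had an unadjusted p-value under 0.05 by edgeR, both with a higher mean after WSD, where 3.88% of all genes were higher at that threshold. The median log2 fold change was 0.11 against -0.03 over all genes tested. Without SCD 3 the median was 0.22, and without SCD 7 it was 0.27. CDKN1A had a median of 41.6 CPM after SCD (25.1 to 47.9 CPM) and 66.0 CPM after WSD (8.35 to 190 CPM). Of the 9 WSD blastocysts 6 lay above every SCD blastocyst, and WSD 6 lay below them all. Its log2 fold change was 1.01, and 1.03 without SCD 3, and every gene of the list had an adjusted p-value above 0.05 by edgeR.

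Transcripts of the oocyte are normally degraded before the blastocyst stage. PC2 placed SCD 3 at -30.5, and OOSP1, OOSP4A and BCL2L10 were among the genes that led it. OOSP1 had 284 CPM in SCD 3 and 215 CPM in SCD 6, and at most 80.4 CPM after WSD. Over 15 tested genes of an oocyte list chosen after the data were seen, the median log2 fold change was -0.94, and it was -0.26 without SCD 3 and -1.16 without SCD 7. The list holds OOSP1, BCL2L10, KPNA7, ACCSL, WEE2 and BTG4, which led PC2 on the side of SCD 3. The high sum of SCD 3 is therefore not independent of PC2. SCD 3 and SCD 6 had the 2 highest sums. The sums of the list were 71.7 to 1236 CPM (median 187) after SCD and 203 to 577 CPM (median 319) after WSD, and the 4 SCD blastocysts other than SCD 3 and SCD 6 lay below every WSD blastocyst. OOEP made up 46.1% of the sum, while 13 of the 15 genes had a lower mean after WSD. OOEP, a protein of the subcortical maternal complex, had a higher mean after WSD, with a median of 93.1 CPM after SCD (46.2 to 132 CPM) and 157 CPM after WSD (94.3 to 265 CPM). Its log2 fold change was 0.86 (SE about 0.29). It was the 1 gene of the 15 with an unadjusted p-value under 0.05 by edgeR, a share near the 8.31% of all genes.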
